A study of Rattus norvegicus with 12 samples.

Results

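The insulin-like growth factor (IGF) system was followed through 10 genes in cultured neonatal rat cardiac myocytes: the ligand Igf1, the receptors Igf1r and Igf2r, the binding proteins Igfbp2, Igfbp3, Igfbp4, Igfbp5, Igfbp6 and Igfbp7, and the adaptor Irs1. They were taken by gene symbol from the platform annotation, 1 probe set per gene, out of 14506 genes measured, and all 10 were found, each with exactly 1 probe set. The set was selected on these arrays' log2 values for Igfbp5, seen to be lower with an siRNA against p300, so the members' differences between the 2 siRNAs are given below as a description, with no p, and counts past a threshold in that contrast support nothing. The members are tested for the change with doxorubicin (Dox), a contrast that the rule does not use, although earlier results of these arrays were known when the members were chosen.

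IGF1 signals through the tyrosine kinase IGF1R, whose active form recruits and phosphorylates the adaptor IRS1 and so engages the PI3 kinase and AKT pathway, a growth and survival route in the heart. IGF2R, the cation-independent mannose 6-phosphate receptor, carries lysosomal enzymes and takes up IGF2 for degradation. The secreted IGFBPs hold IGFs outside the cell, and depending on the context limit or prolong their access to the receptor. IGFBP7 is a distant relative that binds IGFs weakly. p300, encoded by Ep300, is a lysine acetyltransferase and transcriptional coactivator.

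The 4 groups, each of 3 arrays with 1 culture per array, were p300kd T8 (p300 siRNA, 8 h in 1 µM Dox), p300kd T0 (p300 siRNA, 0 h), NS T8 (non-silencing siRNA, 8 h in 1 µM Dox) and NS T0 (non-silencing siRNA, 0 h). All were primary cultures of Sprague Dawley neonatal heart, per the labels over 90% myocytes, grown with bromodeoxyuridine against fibroblasts and kept 48 h before treatment without serum in a medium that held transferrin, vitamin B12 and insulin. The 0 h cultures were the only ones without the drug, so 8 h of Dox and 8 h of time cannot be told apart. The sample titles give biological replicate numbers, which were taken here to name 3 experiments. An experiment below means the arrays that share a number. The values are Affymetrix whole-transcript intensities, given below as log2, with a median standard error (SE) of 0.0951 for a difference between 2 groups; the number of arrays limits the precision.

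Ep300 had log2 intensities of 10.41, 10.02 and 10.05 in p300kd T0 cells, against 11.16, 11.01 and 11.14 in NS T0 cells. After Dox it had 10.10, 9.64 and 9.80 in p300kd T8 cells, against 10.86, 10.72 and 10.72 in NS T8 cells. The siRNA groups did not overlap at either time, and p300kd cells held 51.9% of the NS level at 0 h and 52.9% at 8 h. Against a median over all genes of 8.57 log2, higher levels were found for 10 of 10 cardiac myocyte markers, 9 of 10 of fibroblasts, 8 of 8 of smooth muscle and pericytes, 4 of 8 of macrophages and leukocytes and 1 of 7 of endothelium. In such bulk RNA, fewer cells of a type and less RNA per cell cannot be told apart.

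The promoter windows of 4 genes are shown. Igfbp5 and Igfbp4 were the members with the largest differences between the siRNAs, the contrast that led to the choice of the set. Igf1r and Irs1 were the 2 members that fell with Dox. Each window runs from 250 bases before to 50 bases after the RefSeq start in build GRCr8 (Igfbp5 chr9:81914138-81914437, minus strand; Igfbp4 chr10:84491221-84491520, plus strand; Igf1r chr1:130959747-130960046, plus strand; Irs1 chr9:91053910-91054209, minus strand). Capitals mark matches on either strand to 1 of 5 motifs: the TATA box (TATAAA), the CCAAT box, the GC box (GGGCGG), the AP-1 motif (TGANTCA) and a forkhead motif (GTAAACA).
Igfbp5: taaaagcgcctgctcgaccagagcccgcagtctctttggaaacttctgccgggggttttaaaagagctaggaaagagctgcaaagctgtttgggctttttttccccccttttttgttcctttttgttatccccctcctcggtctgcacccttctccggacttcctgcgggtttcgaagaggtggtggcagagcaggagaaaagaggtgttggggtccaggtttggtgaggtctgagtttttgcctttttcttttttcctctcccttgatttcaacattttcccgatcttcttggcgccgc
Igfbp4: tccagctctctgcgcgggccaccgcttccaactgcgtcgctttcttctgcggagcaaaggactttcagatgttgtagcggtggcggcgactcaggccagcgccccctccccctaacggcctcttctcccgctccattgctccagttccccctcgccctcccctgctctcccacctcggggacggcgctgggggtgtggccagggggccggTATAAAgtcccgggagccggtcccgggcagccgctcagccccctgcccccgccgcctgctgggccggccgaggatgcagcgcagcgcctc
Igf1r: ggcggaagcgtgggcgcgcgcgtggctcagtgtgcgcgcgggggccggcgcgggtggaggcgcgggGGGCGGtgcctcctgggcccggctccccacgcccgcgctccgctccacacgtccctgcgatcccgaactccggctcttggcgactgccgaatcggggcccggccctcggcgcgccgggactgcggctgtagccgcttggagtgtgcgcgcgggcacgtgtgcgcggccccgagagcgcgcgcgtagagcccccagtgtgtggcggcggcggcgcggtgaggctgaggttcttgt
Irs1: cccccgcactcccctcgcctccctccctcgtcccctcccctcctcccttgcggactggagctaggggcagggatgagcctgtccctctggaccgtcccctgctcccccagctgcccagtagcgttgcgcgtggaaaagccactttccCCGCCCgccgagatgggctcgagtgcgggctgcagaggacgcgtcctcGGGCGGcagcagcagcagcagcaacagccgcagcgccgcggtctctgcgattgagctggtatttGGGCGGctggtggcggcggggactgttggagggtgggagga
The Igfbp5 window held none of the 5 motifs and was 50.7% G and C. Igfbp4, at 71.0% G and C, held 1 TATA box, which stood in 14.2% of all 33469 promoter windows of that length and in no other member. Igf1r held 1 GC box and Irs1 held 3, with 78.0% and 70.3% G and C. The GC box stood in 33.1% of all windows and in 5 of the 10 members, the others being Igf2r, Igfbp2 and Igfbp7. CCAAT (37.5% of all windows) and the AP-1 motif (7.33%) stood in 0 of the 10, and the forkhead motif (3.78%) in Igfbp6 alone. The matches did not overlap each other in these 4 windows and describe letters only.

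After 8 h of Dox the signalling receptor and its adaptor had fallen and 3 binding proteins had risen, with either siRNA. A gene passed at an adjusted p under 0.05 over all 14506 genes (limma). In p300kd cells 5 of 10 members passed, 3 up and 2 down, where 31.4% of all genes passed. In NS cells the same 5 passed in the same directions, where 27.5% of all genes passed (with the experiment as a block, 45.8% of all genes passed in p300kd cells and 43.5% in NS cells). With the arrays centred on the median of the genes tested, which was tried after the data were seen, the median change of all genes was 0.145 in p300kd cells (0.041 as deposited) and 0.139 in NS cells (0.036 as deposited). The share of rises among all passing genes was then 68.6% in p300kd cells (44.2% as deposited) and 67.5% in NS cells (40.5% as deposited), while the 5 members kept their calls and directions and Igf2r joined them.

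Igf1r (probe set 10707889), the receptor tyrosine kinase for IGF1, had log2 intensities of 10.72, 10.75 and 10.61 in p300kd T8 cells, against 11.50, 11.52 and 11.53 in p300kd T0 cells. In NS T8 cells it had 10.75, 10.76 and 10.61, against 11.40, 11.34 and 11.31 in NS T0 cells. The groups were far apart, and the 6 treated arrays all lay under the 6 untreated ones. Igf1r fell to 56.5% of its level at 0 h in p300kd cells (log2 change -0.82, SE 0.0704, adjusted p = 4.93e-06). In NS cells it fell to 64.1% (-0.64, SE 0.0704, adjusted p = 3.44e-05). Within the 3 experiments the change ran from -0.92 to -0.77 in p300kd cells and from -0.70 to -0.58 in NS cells. Both calls held under all alternatives tried.

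Igf2r (probe set 10702996), which clears IGF2, moved little. Its levels were 12.81, 12.90 and 12.73 log2 in p300kd T8 cells, against 12.67, 12.73 and 12.66 in p300kd T0 cells. They were 12.75, 12.88 and 12.73 in NS T8 cells, against 12.69, 12.80 and 12.68 in NS T0 cells. The groups met at 12.73 in p300kd cells and overlapped more widely in NS cells. The change was 0.12 in p300kd cells (SE 0.0615, adjusted p = 0.150) and 0.06 in NS cells (SE 0.0615, adjusted p = 0.485). It lay above 0 in 3 of 3 experiments with either siRNA, although quantile normalisation gave -0.002 in NS cells, and with the experiment as a block it passed in p300kd cells (adjusted p = 0.0110).

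Igf1 (probe set 10894695), the ligand, did not pass. It had 11.49, 11.09 and 11.15 log2 in p300kd T8 cells, against 11.54, 11.07 and 10.87 in p300kd T0 cells. It had 11.72, 11.50 and 11.32 in NS T8 cells, against 11.52, 11.16 and 11.48 in NS T0 cells. The groups overlapped widely with both siRNAs. The change was 0.08 in p300kd cells (SE 0.170, adjusted p = 0.746) and 0.13 in NS cells (SE 0.170, adjusted p = 0.630), with the largest SE of the 10 members.

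Irs1 (probe set 10929390), the adaptor that couples IGF1R to PI3 kinase, fell with both siRNAs. It had 9.66, 9.42 and 9.68 log2 in p300kd T8 cells, against 10.07, 9.96 and 10.06 in p300kd T0 cells. It had 9.72, 9.65 and 9.69 in NS T8 cells, against 10.09, 10.02 and 10.13 in NS T0 cells. Treated and untreated arrays did not overlap with either siRNA. Irs1 fell to 73.4% in p300kd cells (-0.45, SE 0.0852, adjusted p = 0.00157) and to 76.2% in NS cells (-0.39, SE 0.0852, adjusted p = 0.00429). The NS call was lost without experiment 3 (adjusted p = 0.0831).

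**Figure D1:**
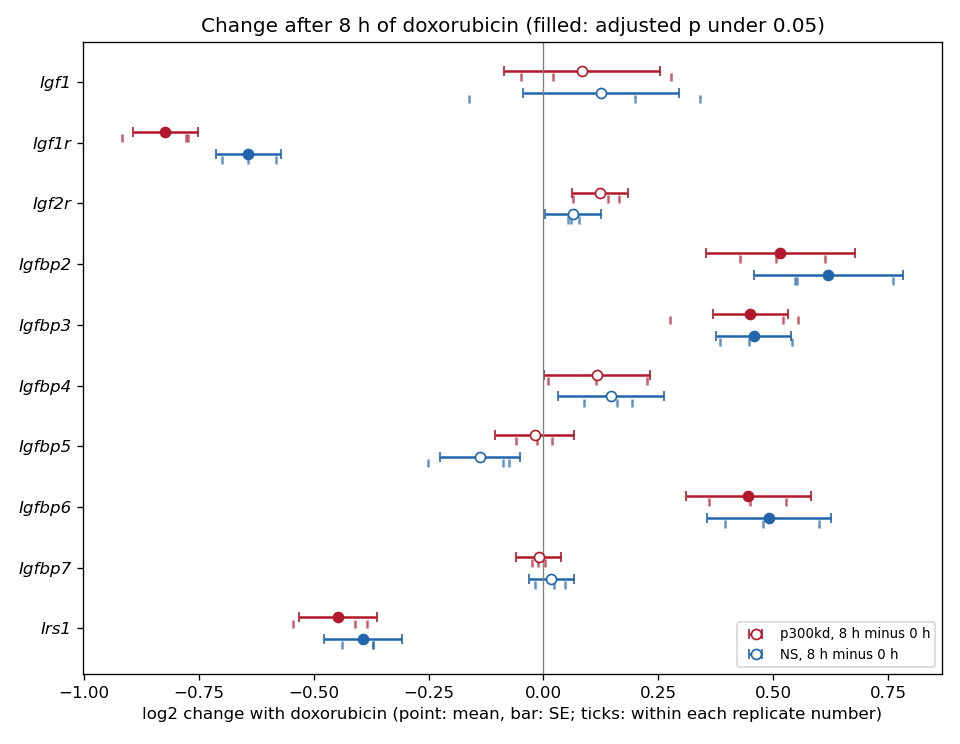
Log2 change after 8 h of Dox for each of the 10 genes, in p300kd cells (upper point of each pair) and NS cells (lower point). Points are means with SE from the limma model, filled where the adjusted p was under 0.05, and ticks are the changes within each of the 3 experiments; Igf1r and Irs1 lie left of 0 and Igfbp2, Igfbp3 and Igfbp6 right of 0 in both.

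Among the binding proteins, Igfbp2, Igfbp3 and Igfbp6 rose. Igfbp3 (probe set 10778390), the main IGF carrier of serum, had 10.67, 10.85 and 10.91 log2 in p300kd T8 cells, against 10.40, 10.33 and 10.35 in p300kd T0 cells. In NS T8 cells it had 10.82, 10.90 and 10.91, against 10.37, 10.36 and 10.52 in NS T0 cells. All treated arrays lay above all untreated ones. It rose 1.37-fold in p300kd cells (log2 change 0.45, SE 0.0815, adjusted p = 0.00110) and also 1.37-fold in NS cells (0.46, SE 0.0815, adjusted p = 0.00117). Both calls were lost without experiment 2 (adjusted p = 0.0537 in p300kd and 0.0616 in NS cells). Igfbp1, its neighbour on rat chromosome 14, had changes of 0.06 in p300kd cells (adjusted p = 0.628) and 0.10 in NS cells (adjusted p = 0.434). It was dim, with group means from 6.36 to 6.46 log2 against a median over all genes of 8.57, so these values say little of its response.

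Igfbp2 (probe set 10924223) encodes a binding protein with an integrin-binding RGD motif. It had 9.94, 9.56 and 9.36 log2 in p300kd T8 cells, against 9.32, 9.13 and 8.85 in p300kd T0 cells. In NS T8 cells it had 9.52, 9.42 and 9.28, against 8.96, 8.87 and 8.52 in NS T0 cells. Treated and untreated arrays did not overlap with either siRNA, although each group was spread wide, with experiment 1 highest in all 4 groups. It rose 1.43-fold in p300kd cells (log2 change 0.52, SE 0.163, adjusted p = 0.0283) and 1.54-fold in NS cells (0.62, SE 0.163, adjusted p = 0.0129). Neither call held without experiment 2 (adjusted p = 0.177 in p300kd and 0.131 in NS cells). The p300kd call was also lost without replicate 2 or 3 of p300kd T0 (adjusted p = 0.0622 and 0.113) and without replicate 1 or 2 of p300kd T8 (0.0982 and 0.0545), and the NS call without replicate 3 of NS T0 (0.0588).

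Igfbp6 (probe set 10899465), which prefers IGF2 over IGF1, had 10.61, 10.30 and 10.23 log2 in p300kd T8 cells, against 10.25, 9.78 and 9.78 in p300kd T0 cells. In NS T8 cells it had 10.48, 10.56 and 10.35, against 10.09, 9.96 and 9.87 in NS T0 cells. The p300kd groups overlapped by 1 array and the NS groups did not. It rose 1.36-fold in p300kd cells (log2 change 0.45, SE 0.136, adjusted p = 0.0239) and 1.40-fold in NS cells (0.49, SE 0.136, adjusted p = 0.0170). Neither call held without experiment 2 (adjusted p = 0.200 in p300kd and 0.183 in NS cells) or experiment 3 (0.112 in p300kd and 0.0928 in NS cells). The p300kd call was also lost without replicate 2 or 3 of p300kd T0 (0.0981 and 0.0903) or replicate 1 of p300kd T8 (0.0820), and the NS call without replicate 3 of NS T0 (0.0627) or replicate 2 of NS T8 (0.0621). With the experiment as a block, all rises of Igfbp2, Igfbp3 and Igfbp6 passed at adjusted p between 1.33e-05 and 4.43e-04.

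The other 3 binding proteins did not pass with Dox. Igfbp4 (probe set 10738140), a target of the protease PAPP-A, had changes of 0.12 in p300kd cells (SE 0.116, adjusted p = 0.476) and 0.15 in NS cells (SE 0.116, adjusted p = 0.380). Igfbp5 (probe set 10928837), the most conserved of the family, had changes of -0.02 in p300kd cells (SE 0.0861, adjusted p = 0.892) and -0.14 in NS cells (SE 0.0861, adjusted p = 0.263), although its NS groups did not overlap. Igfbp7 (probe set 10772169) had changes of -0.01 in p300kd cells (adjusted p = 0.897) and 0.02 in NS cells (adjusted p = 0.831, SE 0.0490 each), with all 12 arrays between 13.78 and 13.93 log2. In all, treated and untreated arrays did not overlap for 4 of 10 members in p300kd cells (43.2% of all genes) and 6 of 10 in NS cells (41.3% of all genes).

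The drug response did not differ detectably between the siRNAs for any of the 10. With limma 0 of 10 members and 0.00% of all genes passed for the difference between the 2 responses. Without the experiment as a block, 0 members and 228 of 14506 genes had an unadjusted p under 0.05. That fit leaves the differences between experiments in its SE, so these unadjusted counts may be too low. Igf1r had the largest difference, -0.18 (SE 0.0996, adjusted p = 1.00), below 0 in 3 of 3 experiments. Igfbp5 had a difference of 0.12 (SE 0.122, adjusted p = 1.00), and those of the other members lay between -0.10 and 0.06. A p that misses the threshold does not show equal responses, and the SE of these differences, from 0.0693 to 0.240, leaves room for modest ones. With the experiment as a block the SE was smaller for each member, from 0.0406 to 0.129 (0.0775 for Igf1r), and again 0 members and 0.00% of all genes passed. Unadjusted counts of that fit are not given here.

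**Figure D2:**
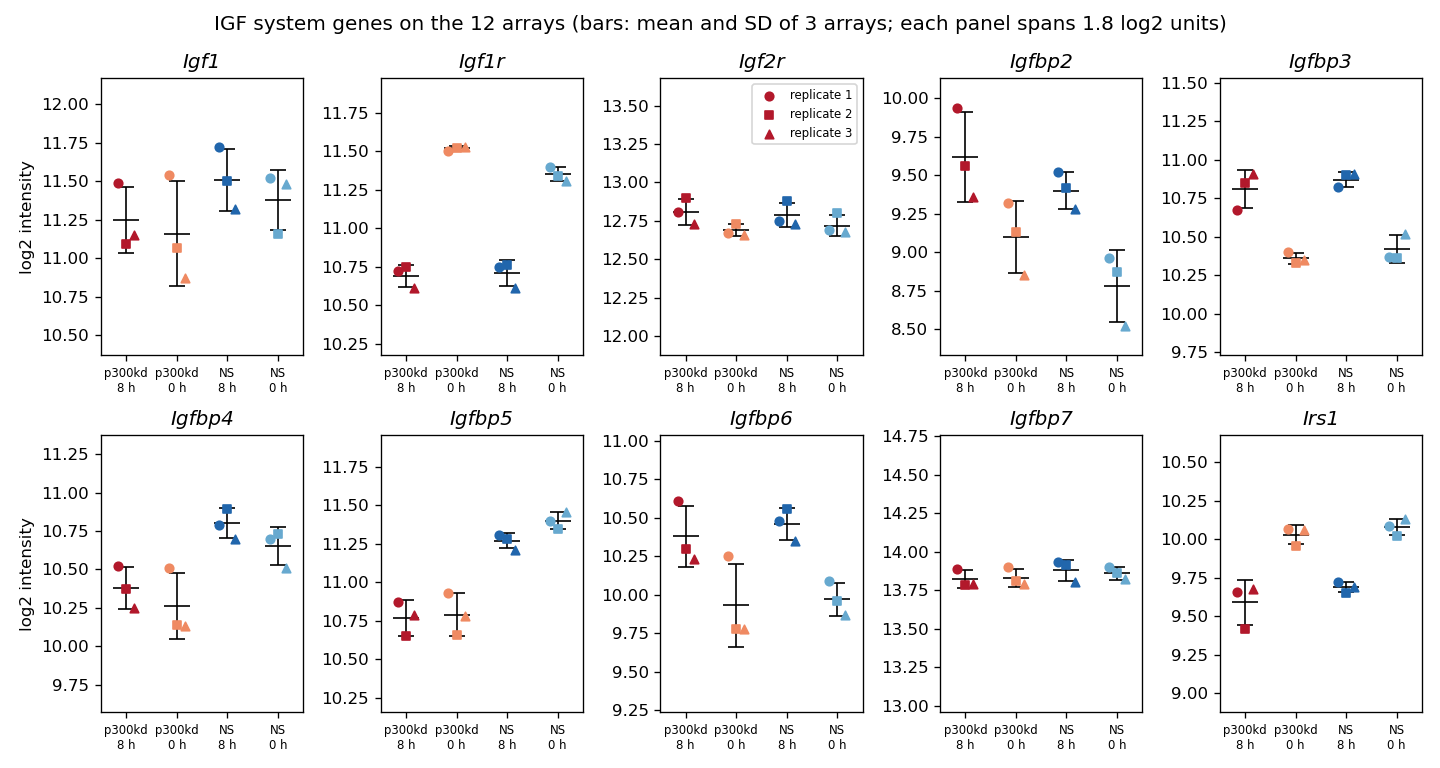
Log2 intensity of each of the 10 genes on every array, by group, with marker shapes for the 3 experiments and black bars for the mean and SD of 3 arrays. Every panel spans 1.8 log2 units; Igf1r separates by drug, Igfbp5 by siRNA, and Igfbp7 stays between 13.78 and 13.93.

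Between the siRNAs, Igfbp5 and Igfbp4 showed the largest differences, and Igfbp2 lay the other way. Igfbp5 had 10.93, 10.66 and 10.78 log2 in p300kd T0 cells, against 11.40, 11.35 and 11.46 in NS T0 cells. After Dox it had 10.87, 10.65 and 10.79 in p300kd T8 cells, against 11.31, 11.28 and 11.21 in NS T8 cells. The 6 p300kd arrays all lay below the 6 NS arrays. The level in p300kd cells was 65.4% of the NS level at 0 h (log2 difference -0.61, SE 0.0861) and 71.0% at 8 h (-0.49, SE 0.0861). Within the experiments the difference ran from -0.69 to -0.46 at 0 h and from -0.63 to -0.42 at 8 h. This is the gene whose difference prompted the choice of the set.

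Igfbp4 had 10.51, 10.14 and 10.13 log2 in p300kd T0 cells, against 10.70, 10.73 and 10.51 in NS T0 cells. It had 10.52, 10.37 and 10.25 in p300kd T8 cells, against 10.79, 10.89 and 10.70 in NS T8 cells. The groups met at 10.51 at 0 h and did not overlap at 8 h. The difference was -0.39 at 0 h and -0.42 at 8 h (SE 0.116 each), and lay below 0 in 3 of 3 experiments at both times.

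Igfbp2, the neighbour of Igfbp5 on rat chromosome 9, lay the other way. The difference was 0.32 at 0 h and 0.22 at 8 h (SE 0.163 each), above 0 in 3 of 3 experiments at both times, while the arrays of the groups overlapped. Leaving out arrays, it ran from 0.186 to 0.444 at 0 h and from 0.057 to 0.344 at 8 h. Igf1, the ligand, had differences of -0.22 at 0 h and -0.26 at 8 h (SE 0.170 each), with overlapping groups and, leaving out arrays, ranges of -0.41 to -0.03 at 0 h and -0.387 to -0.16 at 8 h. Igf1r had a difference of 0.17 at 0 h (SE 0.0704), where the groups did not overlap, and of -0.01 at 8 h. For Igf2r, Igfbp3, Igfbp6, Igfbp7 and Irs1 the differences lay between -0.10 and 0.03 at both times.

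By the same threshold 1 of 10 members was called at 0 h (0.0207% of all genes), 0 of 10 at 8 h (0.0483%) and 2 of 10 for the average of both times (1.25%). At 8 h, 0 members is a limma count, with 2 members and 1155 genes at an unadjusted p under 0.05. With the experiment as a block the counts were 3 (2.69% of all genes), 2 (3.14%) and 4 (9.51%). The groups did not overlap for 2 of 10 members at 0 h (13.0% of all genes) and 2 of 10 at 8 h (11.1%). Nothing is read from these counts, since this contrast led to the choice of the set.

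**Figure D3:**
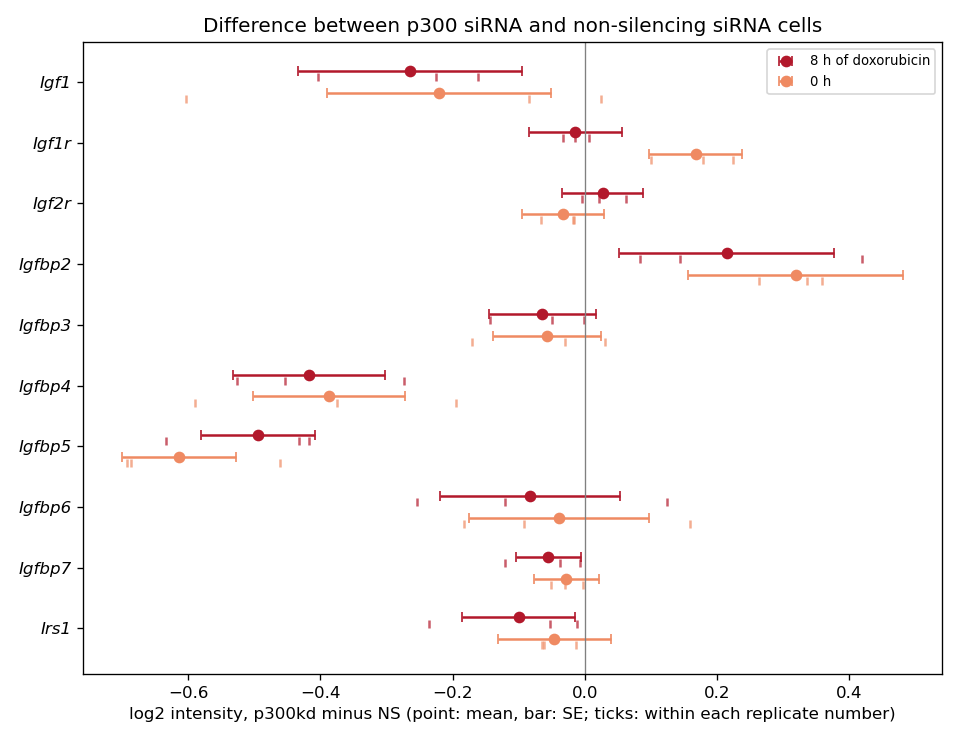
Difference in log2 intensity between p300kd and NS cells for each of the 10 genes, at 8 h of Dox (upper point) and 0 h (lower point). Points are means with SE, ticks the differences within each of the 3 experiments. Igfbp5 and Igfbp4 lie left of 0 and Igfbp2 right of 0 in all experiments at both times. Igfbp7 and Irs1 also lie left of 0 in all experiments at both times, with smaller means.

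Summed levels of fibroblast, macrophage and endothelium markers ran lower in p300kd cells beside these differences, with overlapping ranges. The summed intensity of 10 fibroblast markers ran from 30984 to 37313 in p300kd T0 cells, against 36488 to 39932 in NS T0 cells, and from 32227 to 37403 in p300kd T8 cells, against 36519 to 39731 in NS T8 cells. That of 8 macrophage and leukocyte markers ran from 5881 to 9113 in p300kd T0 cells, against 8733 to 10725 in NS T0 cells, and from 6790 to 8893 in p300kd T8 cells, against 8427 to 11037 in NS T8 cells. For 7 endothelium markers, mostly dim, the sum ran from 1661 to 1884 in p300kd T0 cells, against 1846 to 2014 in NS T0 cells. After Dox it ran from 1600 to 1741 in p300kd T8 cells, against 1643 to 1958 in NS T8 cells. The median difference averaged over both times was -0.17 for fibroblast markers (0 of 10 passed with limma, 4 at an unadjusted p under 0.05). It was -0.34 for macrophage and leukocyte markers (2 of 8 passed, both lower). For endothelium it was -0.13 (0 of 7, 2 at an unadjusted p under 0.05), and for smooth muscle and pericytes -0.01 (1 of 8, lower). Cardiac myocyte markers had -0.04 (0 of 10, also unadjusted), with single markers from -0.15 to 0.53. Over all genes the median was 0.01 and 1.25% passed. The part of these markers in the differences of Igfbp4 and Igfbp5 was not tested. With Dox the sums of fibroblast markers overlapped within each siRNA, and their median change was 0.13 in p300kd cells (3 of 10 passed, 2 up) and 0.04 in NS cells (2 of 10 passed, 1 up). Beside these and the counts that follow, 31.4% of all genes passed in p300kd cells and 27.5% in NS cells. Of the cardiac myocyte markers 0 of 10 passed with Dox in either (limma; 1 had an unadjusted p under 0.05 in each). Of the macrophage and leukocyte markers 3 of 8 passed in p300kd cells (1 up, 2 down, median 0.21) and 1 of 8 in NS cells (down, median 0.09). Of endothelium 2 of 7 passed with either siRNA, both down, with a median of -0.13 in p300kd and -0.23 in NS cells. Of smooth muscle and pericytes 2 of 8 passed with either siRNA, both down, the lowest at -1.12 in p300kd and -1.09 in NS cells. The part of these markers in the changes with Dox was not tested.

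The genes most like Igfbp5 over the 12 arrays, by Pearson r among the 7252 other genes of above-median SD, were Ep300 itself (r = 0.971), the kinase gene Map4k4 (0.945), Chi3l1, which encodes a secreted chitinase-like protein (0.931), the adhesion receptor gene Adgrg1 (0.928) and Gas7 (0.927). Those most opposed were the neuronal splicing factor gene Nova1 (-0.924), the synaptic adhesion gene Nlgn2 (-0.902) and Sez6l2 (-0.898). The arrays share 2 siRNAs and 3 experiments. Igfbp5 was chosen for its siRNA difference, and the siRNA held 89.8% of its sum of squares over the arrays and 82.6% of that of Ep300. A high r with Ep300 and with other genes lower in p300kd cells follows from that choice. It is given as a description, and nothing is read from it. The average difference between the siRNAs was -0.93 for Ep300, -0.69 for Map4k4, -1.13 for Chi3l1, -0.81 for Adgrg1 and -0.53 for Gas7, beside -0.55 for Igfbp5.

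The members differed in what held the largest share of their variation over the 12 arrays. The drug held 95.7% of the sum of squares of Igf1r, 90.5% of Igfbp3, 87.5% of Irs1, 69.9% of Igfbp6 and 60.1% of Igfbp2. The siRNA held 89.8% for Igfbp5, whose siRNA difference prompted the choice of the set, and 67.7% for Igfbp4. The drug held 1.8% and 7.3% of these. The experiment held the largest share for Igfbp7 (69.3%), Igf2r (51.3%, beside 38.8% for the drug) and Igf1 (50.1%, beside 25.3% for the siRNA). With more levels than the drug or the siRNA, the experiment can take up more of the sum of squares. The drug by siRNA term held at most 3.9%, for Igf2r. These shares say nothing of size: Igfbp7 and Igf2r ranged over 0.14 and 0.24 log2 units, and Igfbp2 over 1.42.

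**Figure D4:**
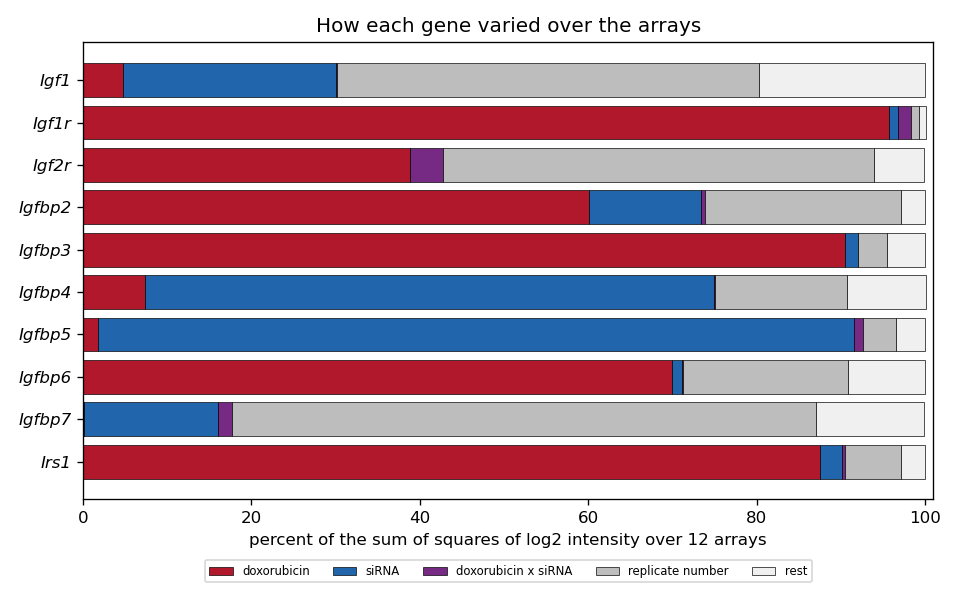
Percent of each gene's sum of squares of log2 intensity over the 12 arrays that went with the drug, the siRNA, their combination, the replicate number (experiment) and the rest. The drug holds most of Igf1r, Igfbp3 and Irs1, the siRNA most of Igfbp5 and Igfbp4, and the experiment most of Igfbp7.

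The rest of the IGF and insulin pathway was covered by a list of 40 genes, of which 31 were measured and the other 9 are not analysed here. With Dox 14 of 31 (45.2%) passed in p300kd cells, 4 up and 10 down, where 13.9% of all genes rose and 17.5% fell. In NS cells 12 of 31 (38.7%) passed, 3 up and 9 down, where 11.1% of all genes rose and 16.4% fell. The median change of the list was -0.05 in p300kd cells and -0.02 in NS cells, against 0.04 for all genes in both. With the experiment as a block 18 of 31 passed in p300kd cells and 18 of 31 in NS cells, 6 up and 12 down in each. Of all genes 45.8% then passed in p300kd cells and 43.5% in NS cells. Without experiment 2 the count was 7 with either siRNA (1 up and 6 down in p300kd cells, 0 up and 7 down in NS cells). Without experiment 3 it was 8 in p300kd cells (0 up and 8 down) and 7 in NS cells (0 up and 7 down). Without replicate 2 of NS T0 the NS count was 9, with 0 up. The rises named below thus rest on few arrays. Without replicate 2 of p300kd T0 the p300kd count was 9. The share of all genes was not set beside the counts without arrays, so the lower counts are not read as a change of the list. Centred on the median of the genes tested, the splits were 7 up and 7 down in p300kd and 7 up and 8 down in NS cells.

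Insr, the insulin receptor gene and a close relative of Igf1r, fell most. It had 10.71, 10.86 and 10.92 log2 in p300kd T8 cells, against 11.54, 11.54 and 11.57 in p300kd T0 cells. In NS T8 cells it had 10.79, 10.55 and 10.43, against 11.48, 11.43 and 11.49 in NS T0 cells. The groups were well apart with either siRNA. Its log2 change was -0.72 in p300kd cells (SE 0.0905, adjusted p = 8.37e-05) and -0.88 in NS cells (SE 0.0905, adjusted p = 2.13e-05), and its dimmer second probe set had -0.57 in p300kd and -0.76 in NS cells.

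Downstream of the receptors, Sos1, a RAS exchange factor, fell in p300kd cells (-0.63) and NS cells (-0.60), as did Pik3cb, a catalytic PI3 kinase subunit (-0.52 in p300kd and -0.58 in NS cells), and Rptor, the defining subunit of mTORC1 (-0.67 in p300kd and -0.53 in NS cells). Igf2bp1, which encodes an RNA-binding protein of Igf2 mRNA, fell too (-0.63 in p300kd and -0.65 in NS cells). Foxo3, a forkhead factor that AKT restrains, rose in both (0.28 in p300kd and 0.22 in NS cells). Its call was lost without experiment 3 with either siRNA, and in NS cells also without experiment 2. Grb14, an adaptor that inhibits the insulin receptor, had -0.42 in p300kd cells (adjusted p = 0.0843) and -0.31 in NS cells (adjusted p = 0.210), neither past the threshold. Grb10, a related adaptor, did fall in both (-0.325 in p300kd and -0.329 in NS cells). Akt1, Akt2, Mtor and Shc1 did not pass with either siRNA.

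Outside the cell, Pappa, the protease that cleaves IGFBP4, rose in NS cells (0.62, adjusted p = 0.0122) and had 0.385 in p300kd cells (adjusted p = 0.0878). Htra1, a serine protease reported to cleave IGFBP5, rose in p300kd cells (0.29) and had 0.145 in NS cells (adjusted p = 0.292). Igfals, the acid-labile subunit that joins IGF complexes in serum, passed in p300kd cells (0.32, adjusted p = 0.0273) at a dim level, with 7.79, 7.38 and 7.61 log2 in p300kd T8 cells, against 7.20, 7.39 and 7.23 in p300kd T0 cells. Those groups overlapped, the change within experiment 2 was -0.007, and in NS cells Igfals had 0.148 (adjusted p = 0.302). The adaptor gene Grb2 rose in p300kd cells (0.29) and had 0.18 in NS cells (adjusted p = 0.195), with 0.48 in p300kd and 0.11 in NS cells for its much dimmer second probe set. Tsc2, an mTORC1 inhibitor, rose in NS cells (0.23) and had 0.17 in p300kd cells (adjusted p = 0.0951). Its partner Tsc1 fell in both (-0.46 in p300kd and -0.48 in NS cells). Igf2, the second ligand, had 0.18 in p300kd cells (adjusted p = 0.311) and 0.29 in NS cells (adjusted p = 0.118). For the difference between the responses 0 of 31 passed with limma (0 at an unadjusted p under 0.05, without the experiment as a block). A change that passed with only 1 siRNA is therefore not shown to differ between them.

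Between the siRNAs 0 of 31 genes passed at 0 h (0.0207% of all genes) and 0 of 31 at 8 h (0.0483%) with limma. At an unadjusted p under 0.05 there were 3 and 4, beside 1008 and 1155 of all 14506 genes. For the average 1 of 31 passed (1.25% of all genes), a count that ran from 0 to 2 when arrays were left out. Nothing is read from these counts. The gene that passed for the average was Htra1 (-0.35, SE 0.0679). Its levels were 11.43, 11.49 and 11.43 log2 in p300kd T0 cells, against 11.72, 11.99 and 11.90 in NS T0 cells. After Dox they were 11.65, 11.82 and 11.74 in p300kd T8 cells, against 11.83, 12.20 and 12.02 in NS T8 cells. The siRNA groups did not overlap at either time.

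**Figure D5:**
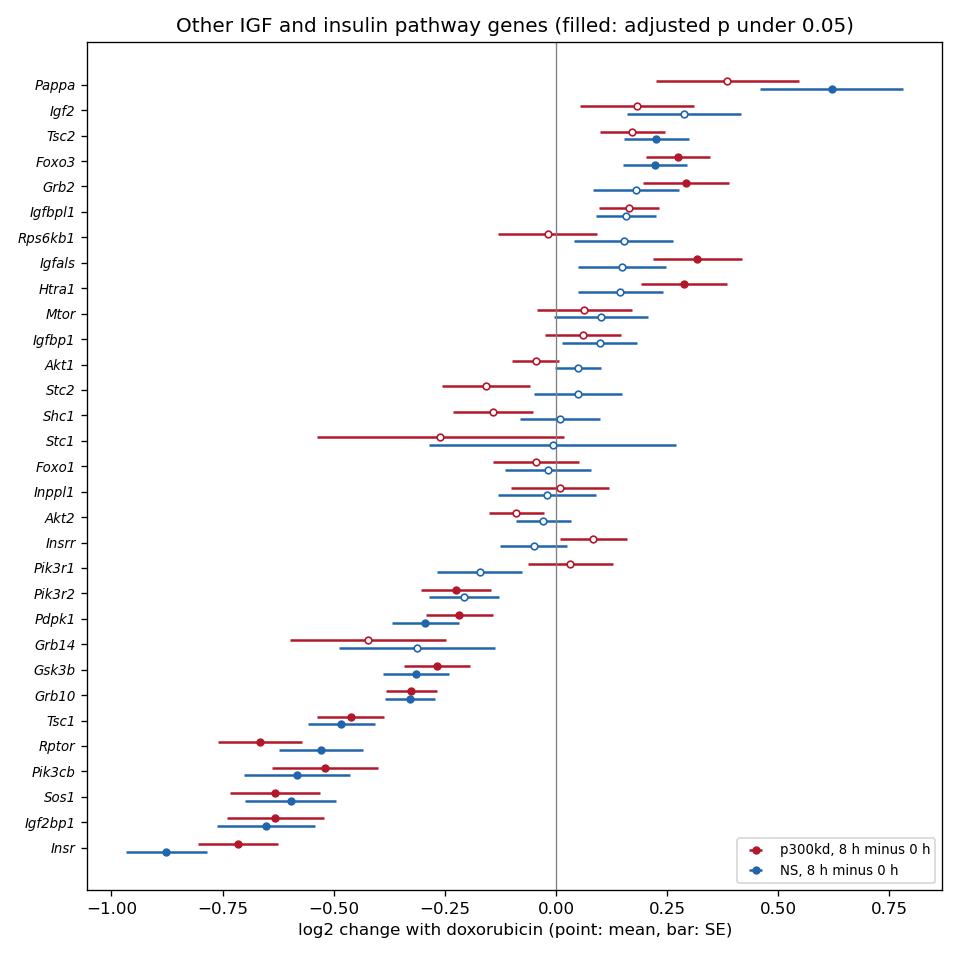
Log2 change after 8 h of Dox for the 31 other genes of the IGF and insulin pathway, in p300kd cells (upper point of each pair) and NS cells (lower point), with SE; filled points have an adjusted p under 0.05. Insr is lowest with either siRNA and Pappa highest.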

How the data were processed

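Total RNA of 12 cultures was labelled with a whole-transcript kit and hybridised to Affymetrix arrays. The deposited values are linear intensity values per probe set from Affymetrix Expression Console 1.1 with RMA, per the submitters' processing notes; how they came to be linear is not given in the sources used here, and the scale was read from the values. RMA corrects background and normalises between arrays, so a change is relative to the other probe sets. Log2 was taken here. Medians over 29214 probe sets were 7.73 to 7.80 log2 per array. The 15310 probe sets with 1 gene symbol (323 had several, 13581 none) gave 14506 genes, the brightest probe set being kept, with no filter on level.

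One limma 3.58.1 model (R 4.3.3) on 4 group means (lmFit, then eBayes with a variance trend, 8 residual degrees of freedom, two-sided) gave all differences, with Benjamini-Hochberg adjustment over all genes per comparison. Groups came from the sample titles. The replicate numbers were taken to pair the samples, as the series design names 3 experiments and all 18 same-numbered pairs of arrays deviated together (r from 0.172 to 0.689, across genes); a fit with the number as a block was an alternative. Others were a random block, fewer groups, dim genes left out, scalings, no trend, averaged probe sets, all probe sets, and arrays left out. The model was checked on simulated data. Named were all 10 members, Ep300, up to 4 rises and 4 falls per Dox comparison of the pathway list with up to 2 that did not pass, and the genes most like Igfbp5 or most opposed; a gene named for one siRNA has its value for the other beside it, and Igfbp1 was added as a neighbour of Igfbp3. Grb10, Tsc1, Akt1, Akt2, Mtor and Shc1 were named besides, after the values were seen. Members and lists were chosen with earlier results of these data known. Promoters are RefSeq's (10 of 10 members matched by symbol). Figures used Python 3.11.15 and matplotlib 3.10.9.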

Additional observations from a re-analysis of the deposited data

How the results depend on the processing

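Of the results with Dox, those of Igf1r and Irs1 in p300kd cells and of Igf1r in NS cells passed under every alternative. Over the settings that left out arrays, 2 to 5 members passed in either p300kd or NS cells, as did 7 to 14 of the pathway genes in p300kd and 7 to 12 in NS cells; fitting only the groups compared left 3 members in p300kd cells (Igfbp2 at adjusted p = 0.0534 and Igfbp6 at 0.0650 were lost), with a cause not tested. The replicate block kept 5 members in NS cells and gave 6 in p300kd cells, Igf2r being added, where 45.8% of all genes passed in p300kd and 43.5% in NS cells. For the siRNA the replicate block called 3 members at 0 h, 2 at 8 h and 4 on average, and 1, 2 and 3 pathway genes; the random block called 2 members at 8 h and 1 and 3 pathway genes at 0 h and on average. Only the groups compared, or all probe sets tested, left 0 members at 0 h, and all probe sets left 1 member and 0 pathway genes on average; with all probe sets more tests are adjusted for. Leaving out arrays gave 0 to 1 members at 0 h, 0 to 2 on average and 0 to 2 pathway genes on average. Apart from the replicate block, the share of all genes was not set beside these counts. They do not tell a change of the members from a change of all genes. The block changed no other call of a member with Dox. Signs that turned belonged to values that did not pass as deposited: Igf2r and Igfbp7 in NS cells at -0.002 each with quantile normalisation, Igfbp5 and Igfbp7 in p300kd cells at 0.085 and 0.094 with the named-gene median. Leaving out arrays, the change with Dox ran from -0.007 to 0.056 for Igfbp7 in NS cells, and in p300kd cells from -0.061 to 0.272 for Igf1, -0.084 to 0.053 for Igfbp5 and -0.044 to 0.023 for Igfbp7. The difference between responses ran from -0.285 to 0.146 for Igf1, -0.262 to 0.029 for Igfbp2, -0.096 to 0.075 for Igfbp3, -0.101 to 0.093 for Igfbp4, -0.158 to 0.112 for Igfbp6, -0.066 to 0.006 for Igfbp7 and -0.107 to 0.031 for Irs1.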
